A study of Danio rerio with 70 samples.

Results

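Thymocytes of preleukemic hulk zebrafish were compared with thymocytes of healthy zebrafish by RNA sequencing, using the 3 libraries labelled as hulk preleukemic and the 5 libraries labelled as healthy sorted thymocytes, 8 of the 70 samples of the series. hulk, otg and shrek are mutant zebrafish lines whose T cells become leukaemic, and preleukemic is the submitters' word for the stage before that. The hulk fish had the genotype hulk;Tg(lck:GFP) and the healthy fish Tg(lck:GFP). Both groups therefore carry the same reporter, green fluorescent protein under the T-cell lck promoter, and in both the GFP-positive thymus cells were sorted before RNA was taken. The labels name no mutated gene for hulk, so no targeted gene could be read out as a check of the labels, and they give no ages. Nothing in the labels says that the libraries of a group come from separate fish, so the p-values below measure only the spread between these libraries, which may be technical. The healthy libraries stand in a count table of their own, and an effect of the table cannot be told apart from one of the group. The otg;Tg(lck:GFP) (n = 4), shrek;Tg(lck:GFP) (n = 2) and Tg(rag2:hMYC), Tg(lck:GFP) (n = 3) preleukemic thymocytes entered the same model, where they share the estimate of the spread. In the last of these the rag2 promoter drives human MYC in early lymphocytes.

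T cells mature in the thymus from precursors that rearrange their receptor genes with the RAG recombinase, pass through a stage with the co-receptors CD4 and CD8 together, and are then tested for signalling through the receptor, in which the kinase Lck takes part. In leukaemia of this lineage a clone stops along this path and keeps dividing. Interferons are cytokines that tell a cell of an infection or of misplaced nucleic acid: their receptors activate transcription factors, STAT2 and IRF9 among them, which switch on antiviral genes such as isg15, the Mx proteins and RSAD2. Vitellogenins are egg yolk precursors that the liver of female fish secretes into the blood under oestrogen.

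Between 8676867 and 11875689 reads were assigned to genes in each hulk library, and between 13259934 and 15437586 in each healthy one. At least 1 read was found for 24520, 18805 and 17219 genes in hulk 1, 2 and 3, and for 21286 to 22661 genes in healthy libraries. Mitochondrially encoded transcripts took 3.93%, 5.74% and 15.7% of the reads of hulk 1, 2 and 3. Their share was 21.97% in healthy 3 and 1.64% to 3.77% in the other 4 healthy libraries. The hulk libraries were not alike: hulk 1 had a rank correlation of 0.930 with healthy 1 and 0.936 with healthy 2, against 0.891 with hulk 2 and 0.860 with hulk 3, while hulk 2 and 3 correlated at 0.918. The lck gene itself was read at 264 CPM or more in all 8 libraries; CPM is the usual count per unit of library size, here after TMM scaling, and is the unit of every level below. The T-cell genes cd247, ZAP70, cd8a and RAG1 were likewise read in each of them.

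**Figure D1:**
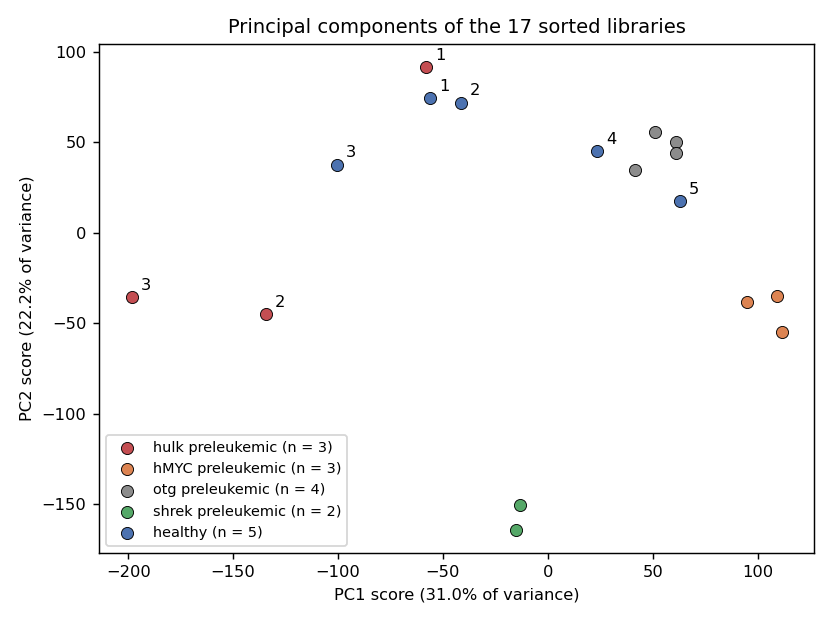
Principal components of log2 CPM in the 17 sorted libraries of the model, with PC1 (31.0% of the variance) across and PC2 (22.2%) up; numbers mark the replicates of hulk and healthy. hulk 1 lies at -57.9 on PC1 and 91.6 on PC2, beside healthy 1 (-56.0 and 74.5), whereas hulk 2 and 3 lie at -134 and -198 on PC1.

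Of 19531 genes tested, 437 (2.24%) were higher and 300 (1.54%) lower in hulk than in healthy thymocytes at an adjusted p under 0.05 in edgeR's quasi-likelihood test with Benjamini-Hochberg adjustment. Both directions together came to 3.77% of the genes, and 4275 genes had an unadjusted p under 0.05. A change of at least 1 on the log2 scale was reached by 406 of the higher and 265 of the lower genes. In 305 of the higher and 258 of the lower genes all 3 hulk libraries lay beyond all 5 healthy ones; over all genes tested, 4.04% had all 3 hulk libraries above and 4.02% below. hulk 1 was not above every healthy library for 120 of the higher genes, and not below every one for 39 of the lower genes. No read was seen in any healthy library for 23 of the higher genes and in any hulk library for 18 of the lower ones. hulk 2 and 3 had the fewest genes with a read, and the part of this in the missing hulk reads was not tested.

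The number of calls followed which libraries were in the fit, though no called gene was called in the other direction in any of 17 alternatives. Without hulk 1 the counts were 1639 higher and 2802 lower. They were 177 and 90 without hulk 2, 156 and 47 without hulk 3, 964 and 1217 without healthy 3, and 228 and 161 without healthy 4. Leaving out healthy 1, 2 or 5 gave 408, 296 and 314 higher and 311, 196 and 212 lower genes. Without hulk 3 and healthy 3, the libraries above 10% mitochondrial reads, 228 genes were higher and 122 lower. With only the 8 libraries of the comparison in the fit the counts were 81 and 24. Of the 71 called genes named in the text, 38 lost their call in that fit, 32 without hulk 2, 36 without hulk 3, 12, 14, 20 and 17 without healthy 1, 2, 4 and 5, and none without hulk 1 or healthy 3. Scaling by library size alone moved the split from 59.3% to 75.2% of calls higher in hulk (319 higher, 105 lower), and 16 of the named calls were lost.

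The genes with the largest rises were nearly silent in healthy thymocytes. aste1a, a homologue of the nuclease-like protein asteroid, was at 49.3, 136 and 70.22 CPM in hulk 1, 2 and 3, and 1 read of it was found in the 5 healthy libraries together. Per unit of TMM-scaled library size, that is a ratio of 5761 (edgeR adjusted p = 3.36e-08, the smallest of all genes). Its 95% counting interval of 1033 to 227600 covers counting error only. The call held in all 17 alternatives.

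btla, an inhibitory receptor of the immunoglobulin superfamily on lymphocytes, was at 28.4, 16.5 and 24.9 CPM in the hulk libraries and had 2 reads, both in healthy 1 (ratio 900, interval 249 to 7447; edgeR adjusted p = 4.57e-06). CCDC134 (ENSDARG00000103285), which codes for a coiled-coil protein, was at 6.29, 19.0 and 17.3 CPM against 2 healthy reads (ratio 454, interval 125 to 3757; edgeR adjusted p = 0.000186). The rule by which genes are named required that the groups do not overlap, so the separation of these genes and of those by the same rule below is no result of its own. CCDC134, nearly unread outside hulk, passed the filter on low counts through hulk, and so did IL1RAPL1 (ENSDARG00000062045), given below. Among the hulk libraries, hulk 1 was the highest for btla and the lowest for aste1a and CCDC134.

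trim35-14, of the tripartite-motif family of ubiquitin ligases, was at 9.29, 79.2 and 72.8 CPM and at most 0.304 in healthy thymocytes (a log2 change of 9.23, SE 1.07; edgeR adjusted p = 0.000149). The transmembrane serine protease gene tmprss3a was at 29.0 to 54.5 CPM against 0.0739 to 1.195 (7.03, SE 0.98; edgeR adjusted p = 0.000719). The inward rectifier potassium channel gene KCNJ13 was at 12.1, 5.88 and 7.58 CPM against at most 0.123 (7.13, SE 0.81; edgeR adjusted p = 9.37e-05). hulk 1 was the lowest of the hulk libraries for the first and second and the highest for the third.

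IL1RAPL1 (ENSDARG00000062045), of the interleukin 1 receptor family, was at 13.1, 11 and 20.8 CPM against 0.228 to 0.509 (a log2 change of 5.40, SE 0.61; edgeR adjusted p = 9.37e-05). ntrnl2 was at 12.3, 18.3 and 19.95 CPM against at most 0.672 (6.69, SE 0.96; edgeR adjusted p = 0.000755). MEIOB, a single-strand DNA binding protein of meiosis, was at 5.00, 9.40 and 9.04 CPM against at most 0.971 (4.62, SE 0.78, edgeR adjusted p = 0.00316). It was the 1 called of 5 tested germ cell markers, from a list of 22, where 2.24% of all genes were higher. The calls of IL1RAPL1, ntrnl2 and the genes in the preceding paragraph held in all 17 alternatives. MEIOB lost its call with only the compared groups in the fit (edgeR adjusted p = 0.0701) and in no other alternative.

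SETD3, the methyltransferase of a histidine of actin, rose from a clear healthy level by a nearly even factor in all 3 hulk libraries: it was at 170, 226 and 200 CPM in hulk and at 30.1, 38.8, 33.1, 38.0 and 30.6 CPM in healthy 1 to 5 (a log2 change of 2.54, SE 0.24; edgeR adjusted p = 1.90e-05). GALK2, an N-acetylgalactosamine kinase, was at 3.82, 12.7 and 9.31 CPM against 0.379 to 1.05, with hulk 1 the lowest of the hulk libraries (a log2 change of 3.79, SE 0.47; edgeR adjusted p = 0.000207). ftr88, a member of the finTRIM family that fish have in many copies, was at 6.23, 8.23 and 9.18 CPM against 0.0565 to 0.455, a low healthy level with 19 reads in all (a log2 change of 4.86, SE 0.43; edgeR adjusted p = 6.85e-06). None of the 3 overlapped between the groups, and all were called in all 17 alternatives; they were chosen after their values were seen.

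**Figure D2:**
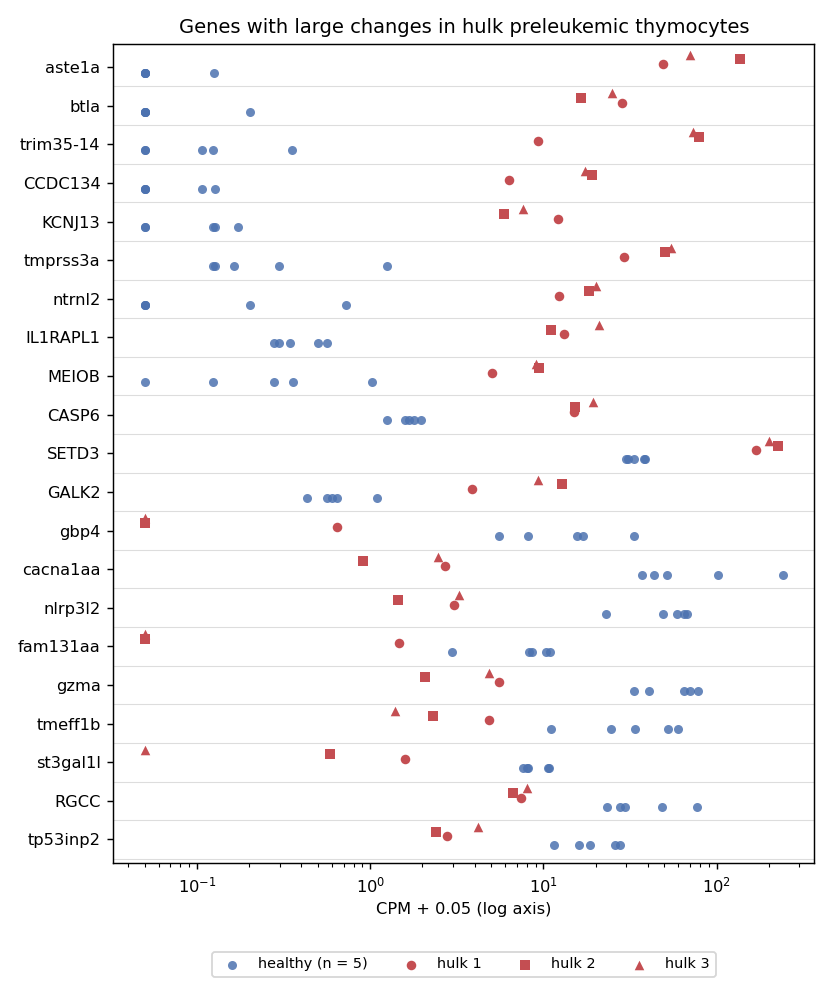
Level of 21 genes in each library as CPM + 0.05 on a log axis, with the 5 healthy libraries as blue points and hulk 1, 2 and 3 as a red circle, square and triangle. The upper 12 genes lie higher in hulk, from aste1a (49.3 to 136 CPM against at most 0.0747) to GALK2, and the lower 9 lie lower, such as nlrp3l2 (1.39 to 3.19 CPM against 22.9 to 67.3); no gene overlaps between the groups.

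Among the genes that fell, 2 of the most even belong to immune defence. nlrp3l2, a member of the NLR family of cytosolic sensors, was at 3.00, 1.39 and 3.19 CPM in hulk 1, 2 and 3 and at 64.7, 48.7, 22.9, 59.05 and 67.3 CPM in healthy 1 to 5 (a log2 change of -4.37, SE 0.44; edgeR adjusted p = 2.48e-05). gzma, a serine protease of cytotoxic granules, was at 5.47, 2.03 and 4.79 CPM against 40.9, 77.6, 33.2, 64.4 and 70.22 CPM (-3.79, SE 0.45; edgeR adjusted p = 0.000135). The highest hulk library stayed below the lowest healthy one for both, and both were called in all 17 alternatives. The same was true of tp53inp2, an autophagy protein, at 2.70, 2.35 and 4.12 CPM against 11.5 to 27.6 (-2.71, SE 0.35; edgeR adjusted p = 0.000281), and of the cell cycle regulator RGCC, chosen after its values were seen, at 7.41, 6.62 and 7.98 CPM against 23.2 to 77.1 (-2.49, SE 0.35; edgeR adjusted p = 0.000686).

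cacna1aa, the pore subunit of a voltage-gated calcium channel, had the largest fall but 1 among the genes named by rule: it was at 2.65, 0.855 and 2.39 CPM in hulk and at 43.5, 37.2, 102, 51.4 and 241 CPM in healthy 1 to 5 (a log2 change of -5.57, SE 0.90; edgeR adjusted p = 0.00287). tmeff1b, a transmembrane protein with follistatin-like domains, was at 4.82, 2.24 and 1.33 CPM against 11 to 59.7 (-3.64, SE 0.54; edgeR adjusted p = 0.000994). Neither gene overlapped between groups, and each lost its call in limma voom alone (adjusted p = 0.154 and 0.0683).

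The other genes of the 15 largest falls rested more often on single libraries. The sialyltransferase gene st3gal1l was at 1.53, 0.534 and 0 CPM against 7.61 to 10.8 (a log2 change of -3.50, SE 0.73; edgeR adjusted p = 0.0138). gucy2cb, a receptor guanylate cyclase, was at 2.65, 0.321 and 2.00 CPM against 9.11 to 25.8 (-3.10, SE 0.62; edgeR adjusted p = 0.00952). MYO9A, an unconventional myosin, was at 5.47, 1.496 and 0.532 CPM against 12.2 to 37.6 (-2.90, SE 0.64; edgeR adjusted p = 0.0189). In each of these genes all hulk libraries lay below all healthy ones. The remaining members were fam131aa (-3.85), the chondroitin sulfotransferase gene CHST15 (-3.46), MIPOL1 (-2.91), FOXRED2 (-2.89), VAT1L (-2.74) and the collagen galactosyltransferase gene COLGALT1 (ENSDARG00000073974, -2.73), with edgeR adjusted p-values of 0.00928 to 0.0417. Leaving out hulk 2 ended the call of MIPOL1, and leaving out either hulk 2 or hulk 3 ended those of st3gal1l, MYO9A, FOXRED2, VAT1L, fam131aa and COLGALT1. The call of CHST15 ended without hulk 3, healthy 2, healthy 4 or healthy 5, that of fam131aa also without healthy 2 or 4, and that of COLGALT1 also without healthy 4 or 5; the edgeR adjusted p-values of these 8 genes then reached at most 0.149. With scaling by library size alone the calls of MYO9A, fam131aa, CHST15 and COLGALT1 ended.

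Interferon response genes were the group with the most calls. Of the 40 genes in a list of interferon signalling and effector genes, all of them tested, 20 were higher in hulk and 1 was lower, where 2.24% and 1.54% of all genes were; the median log2 fold change of the list was 1.33, against -0.07 over all genes. The rise lay mainly in hulk 2 and 3. All 3 hulk libraries were above every healthy one in 11 of the 40 genes, where 4.04% of all genes were so. hulk 2 and 3 both exceeded every healthy library in 31 of the 40 genes (2709 of all 19531). hulk 1 did so in 12 (3283 of all) and was below every healthy library in 7 (3331 of all). Without hulk 2 or without hulk 3, 6 of the genes were called higher. Without hulk 1 there were 27, without healthy 4 or 5 there were 12 and 13, and without hulk 3 and healthy 3 there were 7. In those fits 1639, 228, 314 and 228 of all genes were higher. With only the compared groups in the fit it was 2.

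The effectors led the list. isg15, a ubiquitin-like protein that is attached to others after interferon, was at 24.8, 864 and 577 CPM in hulk 1, 2 and 3 and at 6.45, 6.57, 20.5, 2.37 and 3.44 CPM in healthy 1 to 5 (a log2 change of 5.96, SE 0.89; edgeR adjusted p = 0.00187). hulk 1 was thus only just above the highest healthy library while hulk 2 and 3 stood far above it, and the call held in all 17 alternatives. pkz, the fish kinase that binds Z-form nucleic acid and halts translation, was at 26.6, 112 and 144 CPM against 9.64, 13.2, 8.44, 9.49 and 7.502 CPM (3.29, SE 0.39; edgeR adjusted p = 0.000135), and its call also held throughout.

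RSAD2, the antiviral enzyme viperin, was at 3.41, 168 and 110 CPM, with hulk 1 inside the healthy range of 0.922 to 6.65 (a log2 change of 5.18, SE 0.90; edgeR adjusted p = 0.00485). The Mx GTPase gene mxa was at 6.17, 197 and 178 CPM, hulk 1 again inside the range of 5.53 to 12.3 (3.74, SE 0.77; edgeR adjusted p = 0.0147). xaf1, a partner of an apoptosis inhibitor, was at 16.7, 199 and 223 CPM against 10.4 to 35.7 (2.65, SE 0.54; edgeR adjusted p = 0.0124). For these 3 genes, named after their values were seen, the groups overlapped through hulk 1 alone. Of the other listed genes, mxc (6.06, 42.3 and 57.3 CPM against 1.66 to 5.45) and the nuclear body gene sp100.1 (20.8, 43.7 and 34.8 CPM against 6.60 to 14.6), did not overlap, with edgeR adjusted p-values of 0.00228 and 0.00392. Without hulk 2 or without hulk 3 the calls of mxa and xaf1 ended (edgeR adjusted p at most 0.0592 and 0.0779).

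Of the signal transducers, stat2 was at 233, 555 and 506 CPM in hulk against 66.8 to 231 CPM in healthy thymocytes (a log2 change of 1.55, SE 0.42; edgeR adjusted p = 0.0476). irf9, its partner in the complex that binds interferon response elements, was at 9.17, 31.2 and 33.7 CPM against 7.502 to 13.97 (1.34, SE 0.34; edgeR adjusted p = 0.0345). Again hulk 2 and 3 were high, and hulk 1 lay within or just above the healthy range. Their calls were near the threshold: without hulk 2, hulk 3 or healthy 4 neither passed, stat2 was lost also without healthy 1 or 5, and irf9 also without healthy 1, 2 or 5, with edgeR adjusted p-values of at most 0.198 and 0.230. stat2 was lost also with TMM without mitochondrially encoded genes (edgeR adjusted p = 0.0541). IRF7, the factor that amplifies interferon production, was at 143, 599 and 341 CPM against 51.4 to 316 (1.02, SE 0.51; edgeR adjusted p = 0.252) and did not pass.

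Of the cytosolic RNA sensor genes 1 passed. DHX58, or LGP2, was at 25.1, 136 and 113 CPM against 15.6 to 49.6 (a log2 change of 1.62, SE 0.43; edgeR adjusted p = 0.0417), and IFIH1, or MDA5, was at 12.9, 24.5 and 28.2 CPM against 14.6 to 24.2 (0.19, SE 0.29; edgeR adjusted p = 0.742). usp18, which removes isg15 from proteins and damps the receptor, was at 9.41, 35.9 and 26.2 CPM against 8.07 to 12.3 (1.32, SE 0.32; edgeR adjusted p = 0.0294). In DHX58 and usp18 hulk 2 and 3 were above and hulk 1 within the healthy range; in IFIH1 hulk 2 and 3 were just above the range and hulk 1 below it. The difference between DHX58 and IFIH1 was not tested. irf9, IRF7, DHX58, IFIH1 and usp18 were chosen after their values were seen. Both calls ended without hulk 2, hulk 3, healthy 4 or healthy 5, and that of DHX58 also without healthy 1 (edgeR adjusted p at most 0.199). The 1 listed gene that fell was gbp4, a guanylate-binding GTPase, at 0.588, 0 and 0 CPM against 16.9, 8.12, 33.4, 5.48 and 15.6 CPM (-5.95, SE 1.43; edgeR adjusted p = 0.0289); without hulk 2 or hulk 3 its call ended (edgeR adjusted p at most 0.142).

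**Figure D3:**
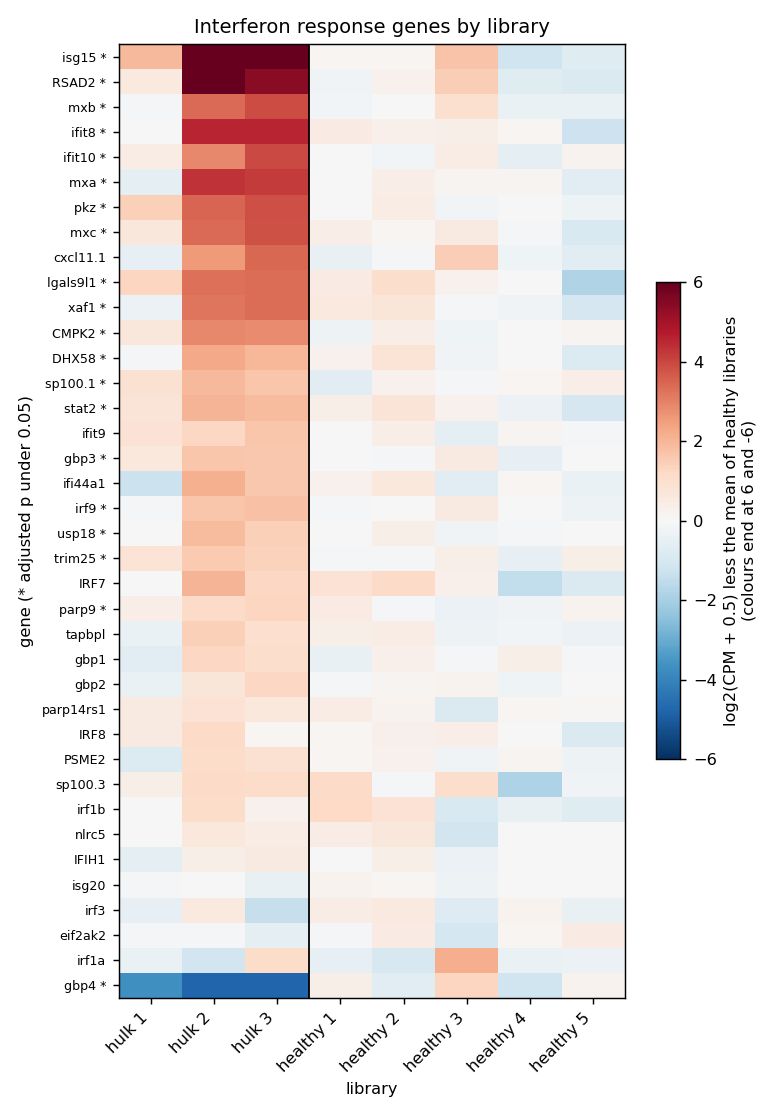
38 of the 40 interferon response genes (rows, by falling log2 fold change; an asterisk marks an edgeR adjusted p under 0.05) in the 3 hulk and 5 healthy libraries, coloured by log2(CPM + 0.5) less the mean of the healthy libraries, from blue (lower) to red (higher). hulk 2 and 3 are red in most rows, whereas hulk 1 is close to the healthy libraries in many; gbp4 in the last row is low in all 3.

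Families of related fish genes were chosen by name after their values were seen. Over all genes tested, 2.24% were higher and 1.54% lower in hulk. Of the 8 ifi27 genes, 5 were higher in hulk, all 5 with hulk 2 and 3 and none with hulk 1 above all healthy libraries; ifi27.2 was at 14.9, 773 and 583 CPM against 10.3 to 57.2 (a log2 change of 3.85, SE 0.91; edgeR adjusted p = 0.0292). Of 13 tested ifi44 genes (14 in the tables), 5 were higher and 1 was lower. ifi44a8 was at 1.18, 194 and 327 CPM against 0.283 to 11.95 (5.42, SE 1.22; edgeR adjusted p = 0.0235), and the gene that fell, ifi44a5, was at 1.29, 7.80 and 3.72 CPM against 13.8 to 36.4 (-2.58, SE 0.50; edgeR adjusted p = 0.00772). Among 60 tested finTRIM genes (71 in the tables) 14 were higher and 2 lower, among them ftr56 at 14.5, 128 and 161 CPM against 4.43 to 10.8 (3.62, SE 0.55; edgeR adjusted p = 0.00145). hulk 2 and 3 were above all healthy libraries in each of the 5 higher ifi44 and 14 higher finTRIM genes, and hulk 1 was so in 2 and 8 of them. Without hulk 2 the higher counts were 2 ifi27, 1 ifi44 and 5 finTRIM genes, and without hulk 3 they were again 2, 1 and 5. The calls of ifi27.2 and ifi44a8 ended without hulk 2 or hulk 3, that of ifi27.2 also without healthy 1, 4 or 5, that of ifi44a8 also without healthy 2, and that of ifi44a5 without hulk 3 (edgeR adjusted p at most 0.105). Reads that mapped to more than 1 place were not counted for any gene, so near-identical copies in these families may be undercounted. Such reads were 12.7%, 13.3% and 31.8% of all reads in hulk 1, 2 and 3, against 5.62% to 16.9% in healthy libraries. This applies to single members and to the counts of members.

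Interferons can come from, or act on, other cells in a sorted fraction, so the markers of such cells were read beside these genes. None of 24 tested macrophage and dendritic cell markers was called; the list of 25 genes, none of them without a read, took 0.0639% to 0.0766% of reads in hulk and 0.0381% to 0.0655% in healthy libraries. For 24 tested NK-like and cytotoxic cell markers, 1 higher and 1 lower were called, where 2.24% and 1.54% of all genes were. Their shares were 0.181% to 0.292% against 0.119% to 0.269%. The median log2 fold changes of the macrophage and NK-like lists were 0.40 and 0.82, against -0.07 over all genes. ifng1, the interferon gamma gene of activated T and NK cells, was at 3.53, 146 and 71.8 CPM against 0.615 to 24.9, high in hulk 2 and 3 and not in hulk 1 (a log2 change of 2.61, SE 0.97; edgeR adjusted p = 0.137). ifng1 was chosen after its values were seen. The part of other cells in the interferon result was not tested. In such bulk samples more cells of a type and more RNA per cell cannot be told apart.

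Of 32 apoptosis genes 3 were higher and 2 lower, where 2.24% and 1.54% of all genes were, with a median log2 fold change of -0.32. faslg, the ligand by which T cells kill through the death receptor Fas, was at 12.1, 125 and 80.2 CPM in hulk and at 11.9, 14.8, 12.6, 6.27 and 0.676 CPM in healthy libraries (a log2 change of 2.97, SE 0.68; edgeR adjusted p = 0.0227). tnfrsf1a, a receptor of tumour necrosis factor, was at 35.9, 88.9 and 75.8 CPM against 18.1 to 43.2 (1.2, SE 0.31; edgeR adjusted p = 0.0390). hulk 2 and 3 were the high libraries for both, with hulk 1 inside the healthy range. The effector caspase gene CASP6 was instead even over the hulk libraries, at 14.99, 15.2 and 19.2 CPM against 1.195 to 1.92 (3.35, SE 0.88; edgeR adjusted p = 0.0417).

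Of the genes that fell in this list, BCL2L1, which protects cells from apoptosis, was at 36.5, 35.7 and 19.6 CPM against 105, 81.6, 47.7, 68.4 and 54.0 CPM, with no overlap between the groups (a log2 change of -1.22, SE 0.27; edgeR adjusted p = 0.0196). gzmk, another granule protease, was chosen after its values were seen. It was at 11.4, 42.1 and 18.1 CPM against 2.64 to 9.23, all hulk libraries above all healthy ones. It missed the threshold (2.16, SE 0.59, edgeR adjusted p = 0.0508), whereas gzma of the same granules fell as given above. In antigen presentation 1 of 28 tested genes was called, where 3.77% of all genes were in either direction. This was tapbp.1, tapasin, which loads peptides on class I molecules. It was at 19.8, 110 and 83.8 CPM against 20.7 to 33.6 (a log2 change of 1.39, SE 0.35, edgeR adjusted p = 0.0351). The calls of faslg, tnfrsf1a, CASP6, BCL2L1 and tapbp.1 ended without hulk 2 and also without hulk 3. Without healthy 4 those of faslg, tnfrsf1a, CASP6 and tapbp.1 ended, without healthy 2 or 5 those of tnfrsf1a, CASP6 and tapbp.1, and without healthy 1 those of CASP6 and tapbp.1 (edgeR adjusted p at most 0.217). With scaling by library size alone those of CASP6 and BCL2L1 ended.

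Few genes of the T lineage were called. Of 27 genes of the T-cell receptor and its signalling 2 were lower and none higher, of 38 tested lineage transcription factors 1 was lower, and of 12 receptor rearrangement genes 1 was lower, where 1.54% of all genes were; counts this small are not read as a result about the groups. lck, the kinase of the receptor and the gene whose promoter drives the sorted reporter, was at 626, 364 and 264 CPM in hulk and at 1001, 1010, 461, 1330 and 1054 CPM in healthy libraries (a log2 change of -1.22, SE 0.32; edgeR adjusted p = 0.0417). The groups overlapped, since healthy 3 lay below hulk 1. cd8b, a chain of the CD8 co-receptor, was at 107, 187 and 93.6 CPM against 305, 240, 223, 217 and 311 CPM, without overlap (-1.0, SE 0.27; edgeR adjusted p = 0.0425). MYB, a transcription factor of immature thymocytes, was at 440, 264 and 164 CPM against 727, 736, 820, 1076 and 917 CPM, without overlap (-1.56, SE 0.35; edgeR adjusted p = 0.0192). dntt, the polymerase that adds bases at receptor gene joints, was at 0.706, 0 and 0 CPM against 0.896 to 8.36 (-3.75, SE 1.03; edgeR adjusted p = 0.0499).

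These calls were near the threshold: those of lck, MYB and dntt ended without hulk 2 and without hulk 3, and that of cd8b without hulk 3. Without healthy 2, 4 or 5 the calls of lck, cd8b and dntt ended, and without healthy 1 those of lck and cd8b (edgeR adjusted p at most 0.248 for these genes). With scaling by library size alone none of the 4 was called (edgeR adjusted p of 0.189, 0.0696, 0.0943 and 0.113 for lck, cd8b, MYB and dntt), and dntt was lost also with DESeq2 size factors and with TMM without mitochondrially encoded genes (edgeR adjusted p = 0.0541 in both). MEF2C (ENSDARG00000029764), a factor that some T-cell leukaemias overexpress, was steadier: it was at 25.7, 20.2 and 12.5 CPM in hulk and at 64.1, 58.3, 45.5, 104 and 118 CPM in healthy libraries (a log2 change of -2.0, SE 0.32; edgeR adjusted p = 0.00203). CCR9 (ENSDARG00000099738), a receptor for a thymic chemokine, was at 127, 159 and 79.1 CPM against 243, 216, 416, 345 and 440 CPM (-1.45, SE 0.29; edgeR adjusted p = 0.00995). All hulk libraries were below all healthy ones in both, and this CCR9 gene lost its call without hulk 3 (edgeR adjusted p = 0.0744). A second gene named CCR9 (ENSDARG00000055186) was read at higher levels and did not pass. It was at 3238, 3304 and 1753 CPM in hulk against 2118 to 6121 in healthy libraries, with overlap (-0.65, SE 0.35, edgeR adjusted p = 0.287).

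KDM6B, a histone demethylase, was at 480, 511 and 237 CPM against 533 to 1589 (a log2 change of -1.49, SE 0.34; edgeR adjusted p = 0.0201), and TET2, which oxidises methylated cytosine, was at 42.8, 32.4 and 15.6 CPM against 50.6 to 102 (-1.27, SE 0.30; edgeR adjusted p = 0.0228). They were the 2 of 46 chromatin and DNA methylation regulators that fell, where 1.54% of all genes did, and none rose. TK1, the thymidine kinase of dividing cells and the 1 of 53 S phase genes called (3.77% of all genes were, in either direction), was at 57.0, 18.7 and 9.58 CPM against 63.2 to 165 (-1.87, SE 0.47; edgeR adjusted p = 0.0338). Every hulk library was below every healthy one for these 3 genes. TET2 and TK1 lost their calls without hulk 2, all 3 without hulk 3, and TK1 also without healthy 4 or 5 (edgeR adjusted p at most 0.161). With scaling by library size alone none of the 3 was called. In 20 of the 46 regulators hulk 2 and 3 were both below every healthy library, and in 5 hulk 1 was (3410 and 3331 of all 19531). For 38 lineage transcription factors these counts were 14 and 6, for 30 Notch pathway genes 11 and 2. They were 14 and 2 for 36 genes of PI3K and mTOR signalling, and 4 and 22 for 53 S phase genes. These counts were not tested.

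Many genes by which thymocytes are staged did not pass. RAG1, the recombinase, was at 1364, 320 and 141 CPM in hulk against 338 to 3482 (a log2 change of -1.21, SE 0.76; edgeR adjusted p = 0.363), and RAG2 was at 105, 68.9 and 22.9 CPM against 46.7 to 339 (-1.46, SE 0.53; edgeR adjusted p = 0.126). Both overlapped between the groups, hulk 3 being the lowest library of all 8. TCF7, a factor of early T cells, was at 234, 59.8 and 60.8 CPM against 120 to 635 (-1.70, SE 0.48; edgeR adjusted p = 0.0575), and bcl11ba, a factor of T-cell commitment, was at 317, 85.3 and 42.3 CPM against 169 to 918 (-1.83, SE 0.57; edgeR adjusted p = 0.0826). hulk 2 and 3 were below every healthy library in both of these, and hulk 1 was not. cd8a (-0.89, SE 0.28), cd247 (-1.03, SE 0.30), cd4-1 (-0.84, SE 0.40) and GATA3 (-0.83, SE 0.31) had edgeR adjusted p-values of 0.0605 to 0.224. ptprc, the common leukocyte antigen CD45, was at 1729, 1557 and 1337 CPM against 1480 to 1626 (-0.01, SE 0.21; edgeR adjusted p = 0.990). The oncogene MYC, in its copies ENSDARG00000007241 (0.13, SE 0.42) and ENSDARG00000045695 (-0.04, SE 0.41), did not pass either (edgeR adjusted p of 0.891 and 0.965), and nor did any of 30 tested Notch pathway genes.

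**Figure D4:**
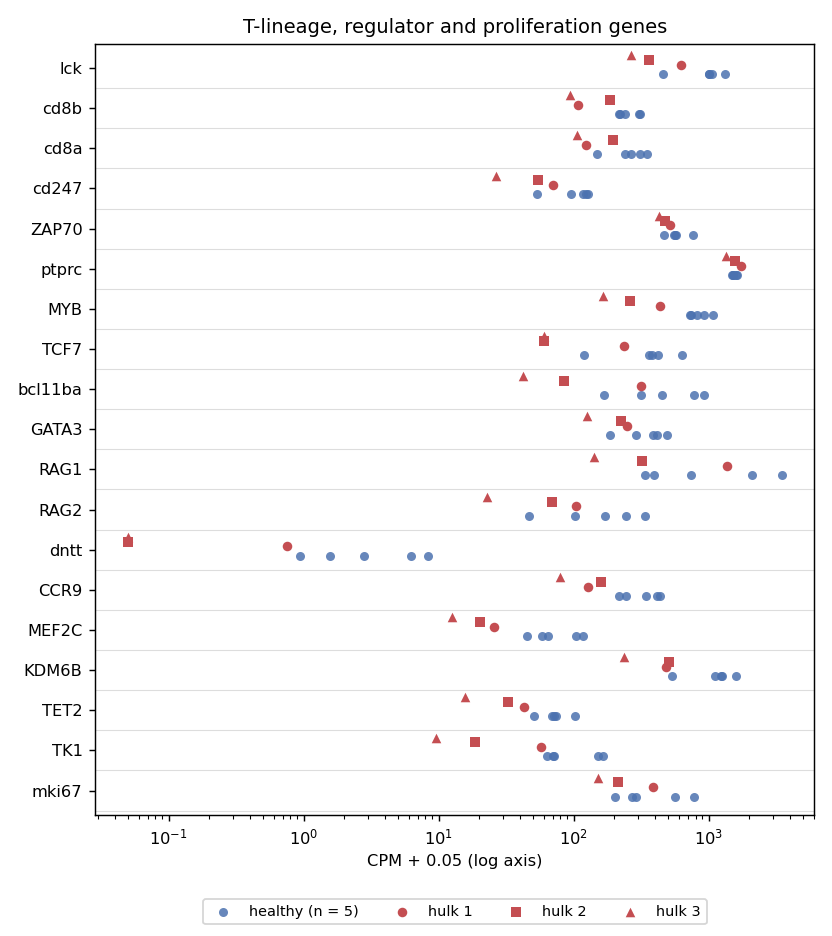
Level of 19 T-lineage, regulator and proliferation genes in each library as CPM + 0.05 on a log axis, with the 5 healthy libraries as blue points and hulk 1, 2 and 3 as a red circle, square and triangle. cd8b, MYB, CCR9 (ENSDARG00000099738), MEF2C and TET2 lie lower in all 3 hulk libraries, ptprc lies at 1337 to 1729 CPM in hulk against 1480 to 1626, and RAG1 overlaps.

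Markers of other blood and stromal cells were read beside the T-lineage genes. No marker was called among 14 B cell, 10 neutrophil, 16 erythroid, 15 thymic epithelium and 26 fibroblast genes tested. In that order the lists had median log2 fold changes of 0.57, 1.05, 1.07, -0.44 and 0.57, against -0.07 over all genes. hulk 1 was above every healthy library in 10 of the erythroid genes (3283 of all 19531). Their summed shares overlapped between groups for B cells (0.0338% to 0.0672% in hulk, 0.00551% to 0.0588% in healthy), neutrophils (0.0563% to 0.173% and 0.0264% to 0.151%) and thymic epithelium (0.0140% to 0.0987% and 0.0119% to 0.120%). The erythroid share was 0.0447%, 0.0213% and 0.0251% in hulk 1, 2 and 3 and 0.00515% to 0.0299% in healthy libraries. Their part in the T-lineage result was not tested.

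All vitellogenin genes that could be tested were higher in hulk. Of the 8 vitellogenin genes 7 were tested, and all 7 were called with every hulk library above every healthy one. Over all genes tested, 2.24% were called higher, and 4.04% had all 3 hulk libraries above every healthy one. Of the 7, vtg1 and vtg2 belong to the list of pancreas and liver markers, and vtg3 was named after its values were seen. vtg1 was at 11.2, 23.9 and 359 CPM in hulk and at 0.0759, 0.0739, 0.672, 0.0565 and 0 CPM in healthy libraries (a log2 change of 9.57, SE 1.30; edgeR adjusted p = 0.000818). vtg7 was at 2.29, 5.02 and 114 CPM against at most 0.228 (8.83, SE 1.2; edgeR adjusted p = 0.000580). hulk 3 held the most by far, and hulk 1 and 2 were still above all healthy libraries. Since these genes are nearly unread in healthy, otg and hMYC libraries, they passed the filter on low counts mainly through hulk, and their shared direction adds no support.

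vtg2, vtg4 and vtg5 had 1, 3 and 2 reads over all healthy libraries, and 724, 826 and 523 reads in hulk. Their ratios per unit of TMM-scaled library size were 1582 (95% counting interval 283 to 62580), 602 (205 to 2924) and 572 (157 to 4731). vtg3 and vtg6 had no healthy read and 116 and 206 hulk reads, so that they were at least 84.5-fold and 150-fold higher, with the floor set at 3 reads over the healthy group. The 5 genes had edgeR adjusted p-values of 0.00155 to 0.0218. Vitellogenin genes resemble each other closely, and reads that mapped to more than 1 place were not counted, so their levels are uncertain. Without hulk 1 or without hulk 2, 6 vitellogenin genes were called, and without hulk 3 there were 5. The others, vtg3 or vtg6 or both, did not pass the filter on low counts there. No vitellogenin tested with a library left out lost its call.

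Of 25 tested markers of liver and pancreas 2, vtg1 and vtg2, were higher, where 2.24% of all genes were, and this count turned on healthy 3. The liver apolipoprotein gene apoa1b was at 29.3, 6.41 and 93.8 CPM in hulk and at 4.33, 0, 76.1, 0.170 and 0.0615 CPM in healthy 1 to 5 (a log2 change of 1.42, SE 1.49; edgeR adjusted p = 0.606). fabp10a, a liver fatty acid binding protein, was at 6.17, 2.99 and 22.7 CPM against 1.44, 0, 16.96, 0.283 and 0 CPM (1.51, SE 1.30; edgeR adjusted p = 0.521). healthy 3 thus held these 2 liver genes at levels near those of hulk 3, but vtg1 at 0.672 CPM. In both liver genes all 3 hulk libraries were above healthy 1, 2, 4 and 5. apoa1b, fabp10a and prss1, given below, were chosen after their values were seen.

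The pancreatic trypsin gene prss1 was at 9.64, 2.46 and 22.1 CPM in hulk and at 10.3, 1.18, 543, 0.113 and 0 CPM in healthy libraries (a log2 change of -3.29, SE 1.98; edgeR adjusted p = 0.345; without healthy 3 it was 1.98, edgeR adjusted p = 0.270). Summed over the 27 genes of the list, none of them without a read, the share of reads was 0.0262%, 0.00690% and 0.0766% in hulk 1, 2 and 3, 0.279% in healthy 3 and at most 0.00816% in the other healthy libraries. Without healthy 3, 12 markers of the list were called higher in hulk, and without hulk 3 and healthy 3 there were 6. Of all genes, 964 of 19190 and 228 of 18785 were higher in those fits. RNA of liver or pancreas in these fractions, and the sex of the fish, which the labels used here do not give, were not tested for their part in the vitellogenin result.

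**Figure D5:**
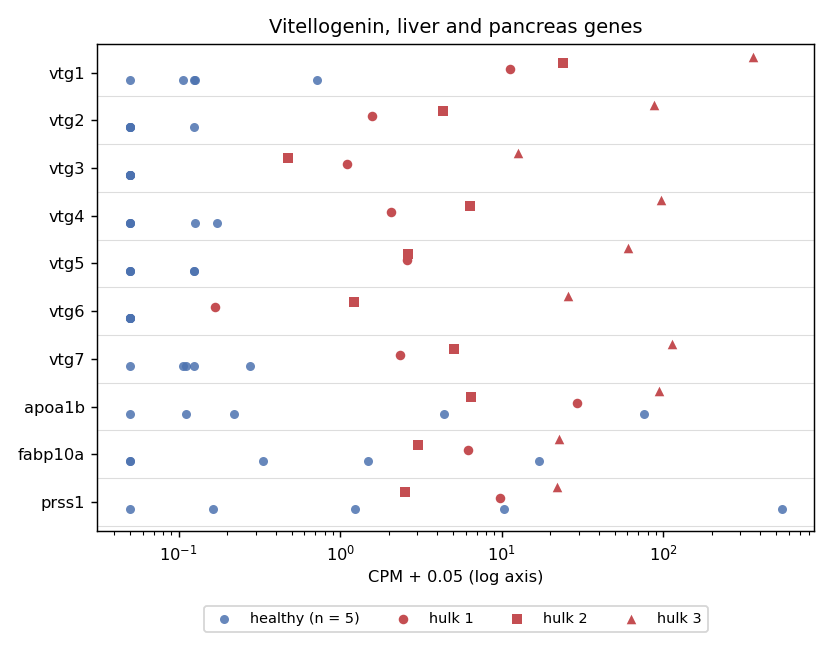
Level of 7 vitellogenin genes, 2 liver genes (apoa1b, fabp10a) and the pancreatic gene prss1 in each library as CPM + 0.05 on a log axis, with the 5 healthy libraries as blue points and hulk 1, 2 and 3 as a red circle, square and triangle. The vitellogenins separate the groups, with hulk 3 the highest (vtg1 at 359 CPM); the other 3 genes overlap, with healthy 3 at 543 CPM for prss1.

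In the TMM-scaled levels of housekeeping programmes the hulk libraries went opposite ways. None of 82 cytosolic ribosomal protein genes passed in either direction, yet hulk 2 and 3 both exceeded every healthy library in 55 of them and hulk 1 was below every healthy library in 63; over all 19531 genes these counts were 2709 and 3331. The genes took 8.07%, 21.4% and 17.8% of reads in hulk 1, 2 and 3, against 9.13% to 16.8% in healthy libraries. Likewise none of 75 tested nuclear genes of oxidative phosphorylation passed, with hulk 2 and 3 above all healthy libraries in 48 and hulk 1 below them in 64. For 41 proteasome genes these counts were 22 and 32, again with no call. The proteasome genes took 0.225%, 0.337% and 0.291% of reads in hulk 1, 2 and 3, all inside the healthy range of 0.204% to 0.365%. For oxidative phosphorylation the shares were 0.335%, 0.718% and 0.561%, outside the healthy range of 0.484% to 0.553%. Shares of reads are not TMM-scaled. In edgeR 40 of the ribosomal protein genes and 41 of the oxidative phosphorylation genes were higher when hulk 1 was left out. In that fit 1639 of all 19093 genes tested were higher. Leaving out any other of the 8 libraries gave none of either list. RPLP0, of the ribosomal stalk, was at 2232, 7521 and 5981 CPM against 2051 to 5701 (a log2 change of 0.46, SE 0.37; edgeR adjusted p = 0.487).

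Growth and stress programmes gave no call in the test with edgeR either. These were 38 tested mitosis genes, 48 immediate early and heat shock genes, 36 genes of PI3K and mTOR signalling, 56 ribosome biogenesis genes and the 13 mitochondrially encoded genes. mki67, a protein of dividing cells, was at 387, 215 and 152 CPM against 204 to 779 (a log2 change of -0.75, SE 0.39; edgeR adjusted p = 0.273). In glycolysis 1 gene rose and 1 fell of 47 tested, where 2.24% and 1.54% of all genes did. Counts this small are not read as a result about the groups. Both genes were lactate transporters. SLC16A3 (ENSDARG00000045051), the exporter, was at 5.70, 9.29 and 9.31 CPM against 1.23 to 4.13 (1.61, SE 0.43; edgeR adjusted p = 0.0420), and SLC16A1 (ENSDARG00000068572) was at 8.70, 3.85 and 1.60 CPM against 4.11 to 39.8 (-2.34, SE 0.58; edgeR adjusted p = 0.0314). Both calls ended without hulk 2, hulk 3, healthy 1 or healthy 2, that of SLC16A3 also without healthy 5 and that of SLC16A1 also without healthy 4 (edgeR adjusted p at most 0.166). Scaling by library size alone ended both.

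The same model tested hulk against the other preleukemic thymocytes of its own count table, where 10.6% of genes were higher and 7.55% lower than in otg, and 16.1% higher and 12.9% lower than in hMYC. Since these comparisons share the hulk libraries with the one against healthy thymocytes, their values are given side by side and not as support. aste1a was higher in hulk than in otg (a log2 change of 2.71, SE 0.41; edgeR adjusted p = 0.000907) and hMYC (3.28, SE 0.47; edgeR adjusted p = 0.000448), with 11.4 to 15.7 and 3.53 to 11.4 CPM there and no read in either shrek library. IL1RAPL1 (ENSDARG00000062045) was higher than in both as well (5.51, SE 0.67 and 5.74, SE 0.77; edgeR adjusted p = 0.000151 and 0.000276). nlrp3l2 was lower than in otg (-5.34, SE 0.46, edgeR adjusted p = 8.06e-06) and hMYC (-6.30, SE 0.49, edgeR adjusted p = 1.85e-06). In the shrek libraries nlrp3l2 was at 2.24 and 2.81 CPM, close to its 1.39 to 3.19 CPM in hulk, so its low level was not particular to hulk. hulk was not tested against shrek.

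Some of the genes with large rises were also read in other preleukemic thymocytes. btla had no read in the 4 otg libraries, and its difference from hMYC missed the threshold (a log2 change of -1.27, SE 0.45; edgeR adjusted p = 0.0505). KCNJ13 passed against neither otg (-0.76, SE 0.61; edgeR adjusted p = 0.384) nor hMYC (-1.74, SE 0.66; edgeR adjusted p = 0.0538). ftr88 did not pass against otg (0.34, SE 0.39, edgeR adjusted p = 0.549) and was lower than in hMYC (-1.2, SE 0.42, edgeR adjusted p = 0.0398). trim35-14 and tmprss3a did not pass against otg (edgeR adjusted p = 0.120 and 0.0577) but were higher than in hMYC. GALK2 and ntrnl2 were higher than in both, but the shrek libraries held them at 12.95 and 15.2 and at 7.31 and 3.98 CPM. Of the 15 largest falls, gbp4, CHST15, MIPOL1, MYO9A and FOXRED2 did not pass against otg (edgeR adjusted p of 0.0718 to 0.786). gucy2cb was higher than in otg, and the others were lower. Against hMYC, gbp4, cacna1aa, gucy2cb and FOXRED2 did not pass (edgeR adjusted p of 0.0514 to 0.133). MYO9A was higher than in hMYC (2.56, SE 0.73, edgeR adjusted p = 0.0166), and the others were lower. Of the 40 interferon response genes, 25 were higher in hulk than in otg and 32 higher than in hMYC, with none lower, and the 7 tested vitellogenins were higher than in both. For the ligand gene faslg the log2 differences were 6.48 from otg and 7.54 from hMYC (edgeR adjusted p = 0.000391 and 0.000394). Its level was 0.539 to 0.949 CPM in otg and 0.158 to 0.504 CPM in hMYC, against 0.676 to 14.8 CPM in healthy libraries. Lists with few calls against healthy thymocytes moved as well. Of 24 NK-like markers 16 were higher than in otg and 19 than in hMYC, with 1 and 2 lower. For 25 liver and pancreas markers 13 and 15 were higher, and for 14 B cell markers 9 and 5, with none lower.

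The 9 leukaemias of hulk fish, scaled together in a set of 46 libraries of the same laboratory, were read for a few of these genes. aste1a was at 1.51, 34.7 and 44.9 CPM (lowest, median and highest leukaemia), nlrp3l2 at 0.200, 0.745 and 1.28 CPM, and isg15 at 46.2, 133 and 245 CPM. On that scale the healthy libraries held at most 0.0707 CPM of aste1a, 21.6 to 57.8 CPM of nlrp3l2 and 2.02 to 19.4 CPM of isg15, so none of the 3 genes overlapped between leukaemias and healthy thymocytes. btla (0, 0.0998 and 41.8 CPM) and vtg1 (0, 0.0711 and 260 CPM) were low in most of the leukaemias and high in at least 1. No test was made across these samples.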

How the data were processed

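Per the labels' protocols, polyadenylated RNA of sorted cells was made into stranded libraries, and per the submitters' processing notes reads were aligned with STAR to GRCz10; the counter is not given in the sources used here. The deposited tables hold raw read counts for 35117 Ensembl genes, 27000 of them with a symbol. Rows for unassigned reads (24.4% to 48.6% of reads in the 8 libraries) and 9 columns of no labelled sample were left out.

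Counts of 17 libraries in 5 groups were fitted with edgeR 4.0.16 (TMM, filterByExpr with a minimum count of 10 and total of 15, robust quasi-likelihood test, group means only) after a check on simulated data. Adjusted p-values are Benjamini-Hochberg over all genes tested, and SE is that of the log2 fold change. Alternatives were DESeq2 1.42.0 (size factors, Wald test), limma 3.58.1 voom, library size alone, TMM without mitochondrial genes, no filter, only the compared groups, a replicate block, and each library left out. Omission of the libraries above 10% mitochondrial reads, and every alternative for hMYC, were chosen after seeing the data.

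Genes were named where they passed, changed by at least 1 (log2), averaged 8 CPM in the higher group, separated all libraries and had an informative symbol (the 15 largest each way), or were among the leading members of 38 gene lists or in a panel of T-cell genes; others are said to be chosen after their values were seen. A few genes are not reported here. The members and lists were chosen with earlier results of these data known. Intervals and floors (95%, 3 reads) cover counting error only, and depth limits what can be said of genes with few reads.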

Additional observations from a re-analysis of the deposited data

Results flagged for a closer look

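In 22 of 138 results tested for it (genes and marker shares named above, over 5 healthy, 4 otg or 9 hulk leukaemia libraries), 1 library stood apart from the rest of its group by Dixon's criterion. Chance alone does so in about 1 of 20 groups of normally distributed values, which these levels need not be. For aste1a, vtg2 and btla all other healthy libraries had no read, so any read was flagged. The mitochondrial share of healthy 3 is counted more than once among the 22. Most of the flags were on healthy 3. Its share of mitochondrially encoded reads was 21.97%, against 1.64% to 3.77% in the other healthy libraries. The shares of pancreas and liver markers (0.279%, others at most 0.00816%), fibroblast markers (0.0549%, others at most 0.0153%) and thrombocyte markers (0.00585%, others at most 0.00290%) also stood apart there.

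By gene, healthy 3 stood apart for prss1 (543 CPM, others at most 10.3), apoa1b (76.1 CPM), fabp10a (16.96 CPM), isg15 (20.5 CPM), irf9 (13.97 CPM), tmprss3a (1.195 CPM), vtg1 (0.672 CPM), ntrnl2 (0.672 CPM) and, with a single read, aste1a (0.0747 CPM). healthy 1 stood apart for the erythroid share (0.0299%, others at most 0.0121%), btla (0.152 CPM), trim35-14 (0.304 CPM) and si:dkey-222h21.9 (10.8 CPM). healthy 2 did so for usp18 (12.3 CPM) and, with 1 read, vtg2 (0.0739 CPM), and healthy 5 for MYO9A (37.6 CPM, others at most 19.6). Among the hulk leukaemias, leukaemia 5 held 260 CPM of vtg1 and the others at most 0.613.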

How the results depend on the processing

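No called gene named in the text changed direction in any alternative. Against healthy thymocytes the higher and lower counts were 437 and 300, and 897 and 947 with DESeq2, 695 and 720 with voom, 319 and 105 by library size alone, 81 and 24 with only the compared groups, 228 and 122 without the libraries above 10% mitochondrial reads, 156 to 1639 and 47 to 2802 when each library was left out. The deviations of same-numbered hulk and healthy libraries from their group means correlated at r = -0.0594, 0.0593 and 0.234. No label says that the numbers pair libraries, and so few pairs cannot exclude it. With a replicate block the counts were 152 and 101, 5 interferon and 3 vitellogenin genes were higher, and 35 of 71 named calls were lost. Against otg (2080 and 1475) the counts were 1304 and 635 by library size, 1361 higher with the replicate block, 918 lower with only the compared groups, 2364 lower with DESeq2, 2712 lower with voom, 1350 and 627 without the high mitochondrial libraries, and 991 to 3223 and 355 to 3751 with each library left out. Against hMYC (3138 and 2520, 55.5% higher) they were 3233 and 918 by library size (77.9% higher), 826 lower with only the compared groups, and 1542 to 3554 and 1332 to 4118 with each library left out. Library size moved the median log2 difference of all genes from 0.01 to -0.13 against otg and from 0.02 to 0.17 against hMYC. The causes were not tested.

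Some uncalled genes changed sign. ptprc was at 0.0446 with DESeq2 size factors, 0.0447 in its Wald test, 0.0163 by library size, 0.0304 with only the compared groups, 0.0953 without the high mitochondrial libraries and -0.0917 to 0.092 with a library left out. MYC ENSDARG00000007241 was at -0.128 with the replicate block and -0.286 to 0.363 with a library left out, where MYC ENSDARG00000045695 was at -0.249 to 0.225. prss1 was at 2.12 with voom, 1.11 without the high mitochondrial libraries and -4.16 to 1.98 with a library left out, and IFIH1 at -0.13 without those libraries and -0.0333 to 0.464 with a library left out.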

Other observations

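Some clone-named genes that the rule for named genes leaves out were switched between the groups, and they were chosen after their values were seen. Of 6 tested genes of the si:dkey-222h21 series, whose products the files do not describe, 3 were lower in hulk, where 1.54% of all genes were. si:dkey-222h21.2 had no read in hulk and was at 6.07, 6.65, 1.87, 5.71 and 5.23 CPM in healthy libraries, at least 58.1-fold lower (edgeR adjusted p = 0.0194). si:dkey-222h21.9 had no hulk read either and was at 2.60 to 10.8 CPM in healthy libraries, at least 52.6-fold lower (edgeR adjusted p = 0.0353). si:dkey-222h21.10 had 3 hulk reads and was at 4.41 to 15.9 CPM, a ratio of 131 with a 95% counting interval of 44.7 to 637 (edgeR adjusted p = 0.0281). All 3 lost their calls without hulk 2 or hulk 3, the third also without healthy 4, and the second also without healthy 1, 2, 4 or 5 (edgeR adjusted p at most 0.137).

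A pair of neighbours in name went opposite ways, and si:dkey-88j15.3 passed the filter on low counts through hulk. si:dkey-88j15.3 was at 5.23, 3.74 and 11.7 CPM in hulk and had no healthy read, at least 154-fold higher (edgeR adjusted p = 0.00267), and si:dkey-88j15.4 was at 0.647, 0.427 and 0.266 CPM against 1.87 to 8.80 (a log2 change of -3.61, SE 0.85; edgeR adjusted p = 0.0298). The call of si:dkey-88j15.4 ended when hulk 2, hulk 3 or healthy 1, 2, 4 or 5 was left out (edgeR adjusted p at most 0.146) and with scaling by library size alone, and that of si:dkey-88j15.3 in DESeq2 alone (adjusted p = 0.172). Reads that mapped to more than 1 place were not counted, so near-identical copies among such genes may be undercounted.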
